A study of Rattus norvegicus with 3 samples.

Results

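The 6 genes Spp1, Lgals3, Cd14, Ptprc, Coro1a and Fcer1a are markers of macrophages and other leukocytes, the white blood cells. They were read on 3 rat expression arrays, 1 each for the time labels 0.0 h, 0.1 h and 1.0 h. All probe sets annotated with only 1 of these symbols were taken, which gave 10 probe sets, with every gene represented, of 8740 that were not controls. Each sample is labelled as total RNA from both the pineal gland and the adrenal medulla. The time comes from the description of each sample alone: the titles number the 0.1 h sample before the 0.0 h sample, and which of them came first was not checked. The sources used here do not name the treatment, strain, age, number of animals or any pooling. With 1 array per label, the differences below have no replicate check, no p-value was computed, and precision is limited by how few arrays there are.

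Leukocytes enter tissues from blood, and macrophages also live in tissues for long periods. The pineal gland holds resident macrophages and microglia-like cells among its pinealocytes and vessels. Ptprc encodes CD45, the membrane tyrosine phosphatase carried by all nucleated blood cells. Coro1a encodes coronin 1A, an actin-binding protein of leukocytes. Cd14 encodes a co-receptor for bacterial lipopolysaccharide on monocytes and macrophages, and Lgals3 encodes galectin-3, a galactoside-binding lectin abundant in macrophages. Spp1 encodes osteopontin, a secreted phosphoprotein that binds integrins and CD44 and is also made by cells outside the blood lineage. Fcer1a encodes the alpha chain of the high-affinity receptor for IgE, known from mast cells and basophils.

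Values are probe set intensities scaled so that the arrays are comparable. A floor for dim probe sets was set at 247.3, 271.0 and 271.1 for the arrays in time order, and it left 60.1%, 59.9% and 60.3% of probe sets above it. A difference was taken only where both arrays were above the floor, and it was called past a threshold of 2-fold. Of the 10 probe sets, 7 were above the floor on all 3 arrays and 3 were below it on all 3, so each of the 6 genes had at least 1 probe set that could be compared. Pinealocyte markers bore out the pineal label, with Tph1, the first enzyme of serotonin synthesis, at 22073, 16963 and 22643 for 0.0 h, 0.1 h and 1.0 h. For the adrenal medulla, Th and Dbh were below the floor on all 3 arrays and Pnmt was above it, and the cortex genes Star and Cyp11a1 were below it. Degraded RNA shows as a larger signal at the 3' end of a transcript than at its 5' end: for beta-actin this ratio was 10.4, 17.8 and 44.4 in the order of the labels, and for GAPDH it was 15.3, 18.6 and 14.1. The part of RNA quality in the results below was not tested.

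The promoters of Spp1, Coro1a and Ptprc are shown because these genes had the largest fold differences among the members. Relative to 0.0 h, Coro1a was 4.11-fold higher at 1.0 h and Ptprc 2.53-fold higher at 0.1 h. Spp1 was 3.52-fold lower at 1.0 h than at 0.1 h. Fcer1a was close behind, 2.41-fold lower at 1.0 h than at 0.0 h. Each promoter is the 250 bases before the start site in the RefSeq promoter table of GRCr8, which held 5 of the 6 genes, printed 5′ to 3′ on the gene's strand. The windows are chr14:5619805-5620054 for Spp1, chr1:190731104-190731353 for Coro1a and chr13:52259747-52259996 for Ptprc, all on the minus strand. The gene table of the same assembly places the gene's outer end upstream of this start, so that all of the Spp1 window and the last bases of the others lie inside the annotated gene. Capitals mark matches on either strand to any of 4 motifs. The first, GAGGAA, is the core of sites for the myeloid factor PU.1. A RUNX site was searched as AACCNCA. For AP-1 the letters were TGANTCA. The TATA box was searched as TATAAA. No match overlapped another.
Spp1: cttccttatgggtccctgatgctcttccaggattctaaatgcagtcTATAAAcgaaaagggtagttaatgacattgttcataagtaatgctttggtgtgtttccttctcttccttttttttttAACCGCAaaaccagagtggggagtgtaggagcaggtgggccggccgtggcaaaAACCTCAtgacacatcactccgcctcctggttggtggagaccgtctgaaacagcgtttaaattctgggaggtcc
Coro1a: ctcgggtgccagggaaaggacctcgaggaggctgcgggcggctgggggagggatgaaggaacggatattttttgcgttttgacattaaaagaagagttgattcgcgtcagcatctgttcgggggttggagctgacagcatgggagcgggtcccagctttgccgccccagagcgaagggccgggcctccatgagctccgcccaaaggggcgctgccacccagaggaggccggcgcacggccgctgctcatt
Ptprc: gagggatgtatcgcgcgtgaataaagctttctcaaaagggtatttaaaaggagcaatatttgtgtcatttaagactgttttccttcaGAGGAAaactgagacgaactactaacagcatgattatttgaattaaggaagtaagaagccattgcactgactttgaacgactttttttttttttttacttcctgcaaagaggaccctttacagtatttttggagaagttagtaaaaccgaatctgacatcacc
The Spp1 window held AACCNCA at 127 to 121 and at 74 to 68 bases before the start and TATAAA at 204 to 199. The Ptprc window held GAGGAA at 163 to 158, and the Coro1a window held none of the 4. Of 33469 promoter windows of the same length, 23.3% held GAGGAA, 12.9% AACCNCA, 6.3% TGANTCA and 12.9% TATAAA. A match describes letters in this window and is no evidence of binding.

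Spp1, the secreted member, was represented by 1 probe set, M14656_at. Its intensity was 18254 at 0.0 h, 23183 at 0.1 h and 6580 at 1.0 h. The 1.0 h array was the low one, and the earlier arrays lay close together. Relative to 0.0 h, the 1.0 h level was 2.77-fold lower (log2 difference of -1.47), and relative to 0.1 h it was 3.52-fold lower (-1.82). Between 0.1 h and 0.0 h the levels were 1.27-fold apart, a log2 difference of 0.34. In both comparisons of 1.0 h with an earlier array, only 0.6% of all measured probe sets had a lower difference than Spp1. Spp1 was among the brightest 961 of the measured probe sets, of which 4.0% lay past 2-fold in either direction between 1.0 h and 0.0 h.

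Lgals3 was nearly level. Its probe set J02962_at read 12035, 11920 and 13680 in intensity for 0.0 h, 0.1 h and 1.0 h. The log2 differences were -0.01 between 0.1 h and 0.0 h, 0.18 between 1.0 h and 0.0 h and 0.20 between 1.0 h and 0.1 h. In no comparison did the levels lie more than 1.15-fold apart, which is well inside the spread of all probe sets, whose log2 differences had SDs of 0.53, 0.44 and 0.56 in these 3 comparisons. These SDs, derived from median absolute deviations, are over probe sets and not over replicates.

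Cd14, the lipopolysaccharide co-receptor, was read by 2 probe sets, both above the floor on every array. AF087943_s_at read 1616, 2533 and 1888 in intensity for 0.0 h, 0.1 h and 1.0 h. AF087944mRNA_s_at had 399.4, 609.3 and 588.0. On both probe sets the 0.0 h array was the lowest. The 0.1 h levels were 1.57-fold and 1.53-fold above those at 0.0 h, with log2 differences of 0.65 and 0.61, so the 2 readings lay close together. At 1.0 h they were 1.17-fold and 1.47-fold above 0.0 h. None of these differences reached 2-fold, and between 0.1 h and 0.0 h 14.4% and 15.9% of all measured probe sets had a higher difference than the 2 Cd14 readings.

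Ptprc, the CD45 gene, had 3 probe sets, of which only M25823_s_at was above the floor. It read 285.5, 722.1 and 503.8 in intensity for 0.0 h, 0.1 h and 1.0 h. The 0.0 h level stood just over the floor and was the low value of the 3. The 0.1 h level was 2.53-fold higher than at 0.0 h (log2 difference of 1.34) and the 1.0 h level 1.76-fold higher (0.82). Between 1.0 h and 0.1 h the log2 difference was -0.52. The other probe sets, K03039mRNA_s_at with 118.5, 91.5 and 100.3 and M10072mRNA_s_at with 22.3, 82.4 and 96.8, were below the floor on all 3 arrays. They therefore give no difference, and the higher Ptprc level at 0.1 h and 1.0 h rests on 1 probe set. When the log2 values of all 3 probe sets were averaged, the differences from 0.0 h were 0.95 at 0.1 h and 0.90 at 1.0 h, and the first was then under 2-fold.

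Coro1a, the leukocyte coronin, differed most among the members. Its single probe set, rc_AA892506_at, had intensities of 450.9 at 0.0 h, 918.0 at 0.1 h and 1852 at 1.0 h. Each later label had the higher value. The 1.0 h level was 4.11-fold above 0.0 h, a log2 difference of 2.04, and 99.9% of all measured probe sets had a lower one. The steps from 0.0 h to 0.1 h and from 0.1 h to 1.0 h were 2.04-fold and 2.02-fold, at the edge of the 2-fold rule. With the values as deposited, with quantile, cyclic loess or spike-in scaling, with the floor at the 20th percentile or with no floor, the first step had log2 differences of 0.75 to 0.99, under 2-fold. The second step had log2 differences of 1.00 to 1.48 under the alternatives and the difference between 1.0 h and 0.0 h 1.90 to 2.23.

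Fcer1a, the IgE receptor chain, had 2 probe sets designed on the same sequence record that did not read alike. M21622_g_at read 1271, 699.0 and 526.4 in intensity for 0.0 h, 0.1 h and 1.0 h, and the 0.0 h array was the high one. The 1.0 h level was 2.41-fold lower than at 0.0 h, a log2 difference of -1.27, and the 0.1 h level 1.82-fold lower, a log2 difference of -0.86. M21622_at had 181.6, 267.4 and 164.5, below the floor on all 3 arrays, and its highest value was at 0.1 h. Averaging the log2 values of both probe sets gave -0.15 between 0.1 h and 0.0 h and -0.71 between 1.0 h and 0.0 h. The lower Fcer1a level at 1.0 h thus rests on M21622_g_at. Ms4a2, which encodes the beta chain of the same receptor, was below the floor on all 3 arrays on its brightest probe set, with 133.9, 153.4 and 45.3.

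**Figure D1:**
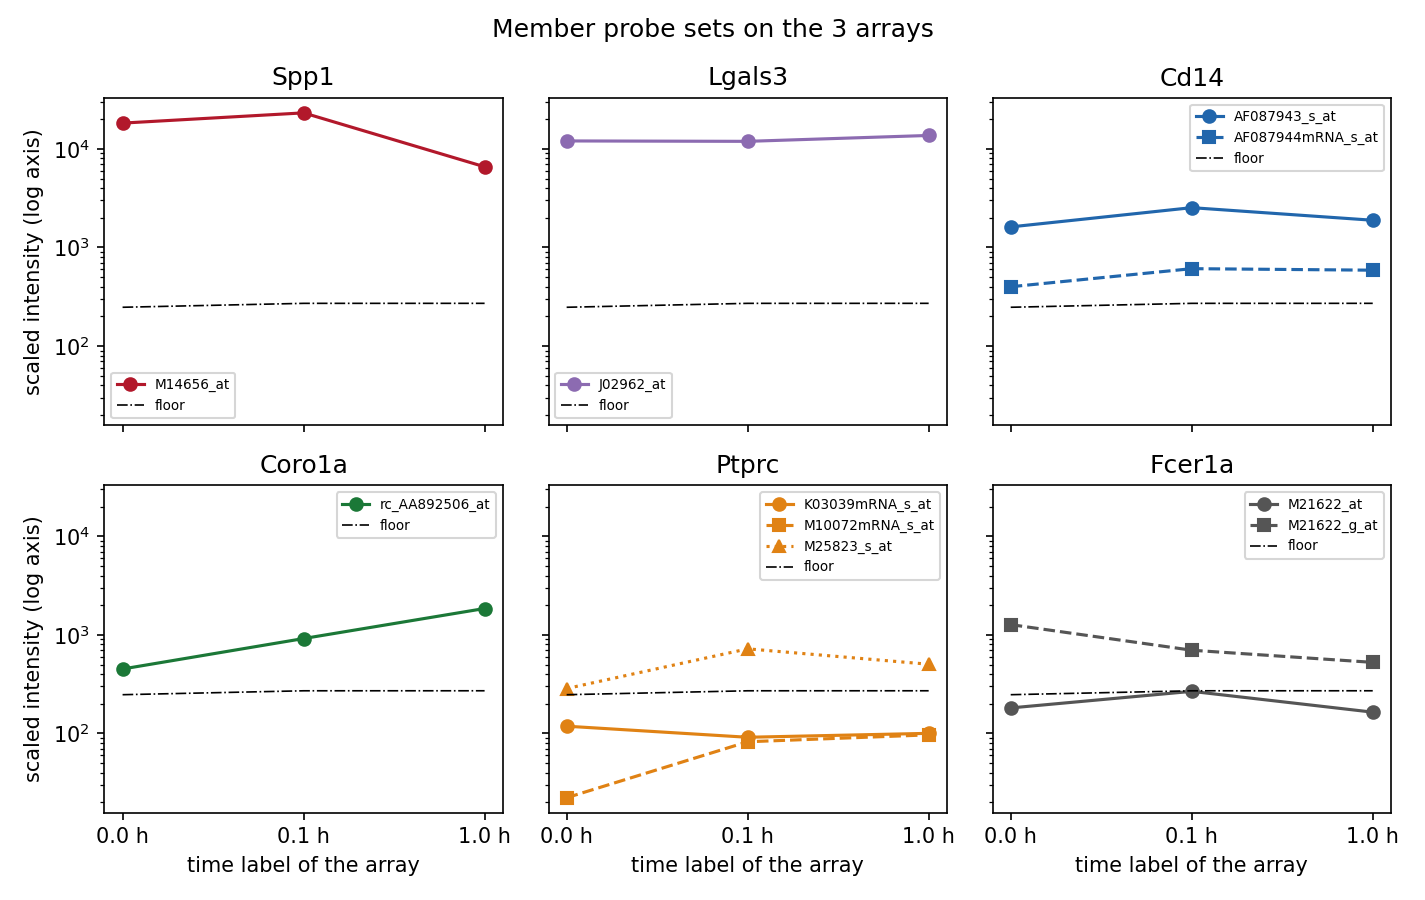
Scaled intensity (log axis) of the 10 member probe sets on the arrays labelled 0.0 h, 0.1 h and 1.0 h, with 1 panel per gene; each point is 1 array, the lines join the points of a probe set, the labels are evenly spaced and not to scale in time, and the dash-dotted line is the floor. Spp1 is low at 1.0 h with 6580, Coro1a is highest there with 1852, and 2 Ptprc probe sets and 1 Fcer1a probe set lie below the floor on all 3 arrays.

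The comparison of 0.1 h with 0.0 h addressed which markers differed at the first later label. Of the 7 measured member probe sets, 2 were at least 2-fold higher at 0.1 h, those of Ptprc and Coro1a, and 0 were at least 2-fold lower. Of all 4769 measured probe sets, 6.37% were called higher and 4.24% lower. Read as genes, 2 of 6 were higher and 0 lower, against 5.76% and 4.59% of 3005 genes. The median log2 difference of the 6 genes was 0.50, and that of all measured genes was 0.00. Cd14 and Spp1 lay above 0.0 h by less than 2-fold, Lgals3 was level and Fcer1a lay below it.

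The comparison of 1.0 h with 0.0 h uses the same 0.0 h array, so the error of that array enters both. Here 1 of the 7 member probe sets, that of Coro1a, was at least 2-fold higher, and 2, those of Spp1 and Fcer1a, were at least 2-fold lower. Of all 4806 measured probe sets, 3.1% were called higher and 2.46% lower. The genes of the list therefore stood on both sides, with a median log2 difference of 0.20 over 6 genes and of 0.02 over all measured genes. Side by side, the differences from 0.0 h at 0.1 h and 1.0 h were 1.34 and 0.82 for Ptprc, 1.03 and 2.04 for Coro1a, 0.34 and -1.47 for Spp1, and -0.86 and -1.27 for Fcer1a. The array has bulk RNA, so fewer cells of a type and less RNA per cell cannot be told apart.

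The comparison of 1.0 h with 0.1 h addressed the later arrays. Coro1a was the 1 member probe set at least 2-fold higher and Spp1 the 1 at least 2-fold lower, with 3.86% and 5.49% of all 4791 measured probe sets past 2-fold in these directions. The other 5 probe sets had log2 differences between -0.52 and 0.20, those of Ptprc and Lgals3. Read as genes, 1 of 6 was higher and 1 lower, against 4.07% and 5.03% of 3020 genes. The median log2 difference over the 6 genes was -0.42.

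**Figure D2:**
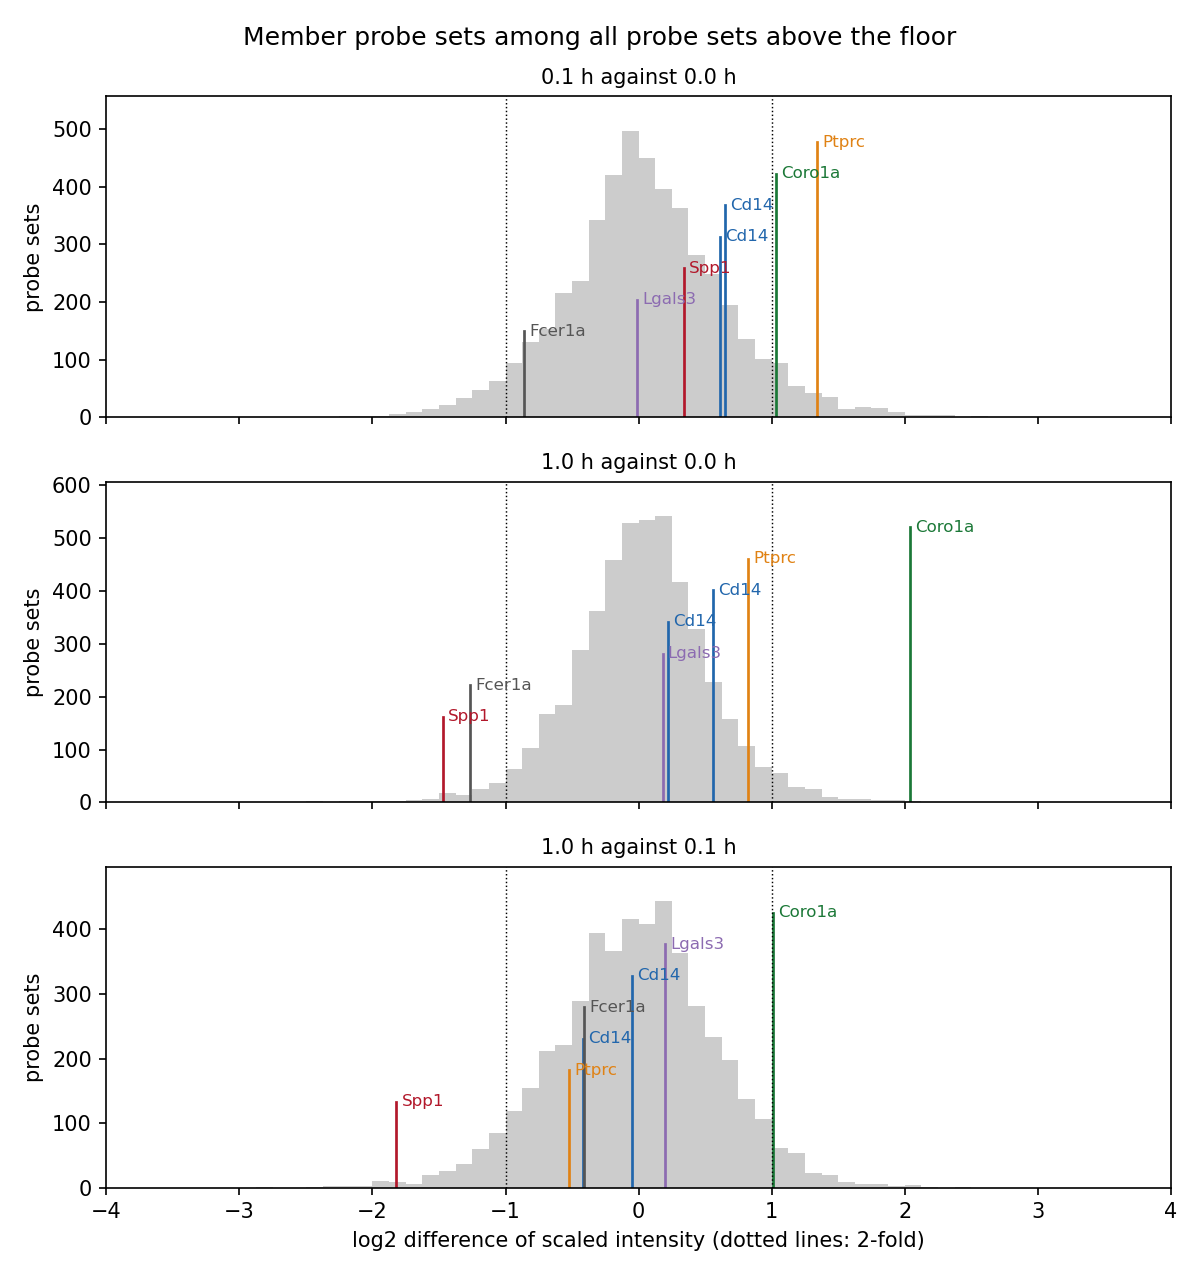
Histograms of the log2 difference of scaled intensity over all measured probe sets (grey, number of probe sets per bin), in 3 panels, 1 per comparison; coloured lines mark the 7 member probe sets, their heights serve only to separate the names, and the dotted lines are at 2-fold. Coro1a at 2.04 and Spp1 at -1.47 lie in opposite tails between 1.0 h and 0.0 h, while Lgals3 stays near the middle in every panel.

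Different probe sets of a gene gave a measure of how far a single reading can be relied on. Between 0.1 h and 0.0 h, 727 genes had 2 or more measured probe sets, and in 65.1% of them the brightest and second-brightest differed in the same direction. Where the brightest of these was at least 2-fold apart, in 77 genes, the second was also at least 2-fold apart the same way in 35.1%. Between 1.0 h and 0.0 h this was so in 22.5% of 40 genes, and between 1.0 h and 0.1 h in 15.2% of 66. Among the members only Cd14 had 2 measured probe sets. Spp1, Lgals3 and Coro1a had no other probe set on the array, so for them this comparison could not be made.

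Other markers of blood cells were read from 4 lists, each gene on its brightest probe set. Of 52 such genes beside the members, 27 were below the floor on all 3 arrays. Of those measured, 0 of 16 between 0.1 h and 0.0 h, 0 of 17 between 1.0 h and 0.0 h and 0 of 17 between 1.0 h and 0.1 h were at least 2-fold apart, and their medians were 0.11, 0.20 and 0.25. Of all measured genes, 5.76%, 2.56% and 4.07% were called higher and 4.59%, 2.53% and 5.03% lower in the same order. The medians of the single fixed lists are descriptions, most of them with no firm sign. Of 54, 33 changed sign under at least 1 other scaling, floor or choice of probe set, and those had ranged from -0.36 to 0.46. The pooled medians of 0.11, 0.20 and 0.25 are not among the 54.

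Among macrophage and monocyte genes, 5 beside the members were measured between 1.0 h and 0.0 h, with a median log2 difference of 0.57. Ctss, a lysosomal protease, read 9560, 9892 and 15558 in intensity for 0.0 h, 0.1 h and 1.0 h, and at 1.0 h it was 1.63-fold above 0.0 h. The complement genes C1qb and C1qc were 1.70-fold and 1.48-fold above it, and the lysozyme gene Lyz2 1.21-fold. All of these stayed under 2-fold. Aif1, a marker of microglia and macrophages, had 184.1 at 0.0 h, under the floor, and 427.6 and 471.9 later, so 0.1 h exceeded 0.0 h at least 1.73-fold and 1.0 h exceeded it at least 1.91-fold. Neither of its other 2 probe sets reached the floor at any label. U17919_s_at read 156.1, 259.3 and 162.6, and U33471_at read 150.3, 112.1 and 150.6. The Aif1 bounds thus rest on U10894_s_at alone. Itgam, Csf1r, Ccr2 and Cx3cr1 were below the floor on all 3 arrays. The summed level of the 13 genes of this list with a probe set, Spp1 among them, was 46525, 54459 and 44633.

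Among genes of all leukocytes, those beside Ptprc and Coro1a gave 0 of 4, 0 of 5 and 0 of 5 at least 2-fold apart in the comparisons of 0.1 h with 0.0 h, 1.0 h with 0.0 h and 1.0 h with 0.1 h, with medians of -0.11, 0.09 and 0.40. Cyba, a subunit of the phagocyte oxidase, was 1.83-fold above 0.0 h at 1.0 h, with intensities of 1835, 2195 and 3364. Cd48 was level at 3170, 3391 and 2744, and Srgn, the proteoglycan of secretory granules, had 1357, 824.9 and 1494. The Vav1 gene of leukocyte signalling was below the floor at 0.0 h and at least 1.78-fold higher at 1.0 h. The summed level of the 11 genes with a probe set was 9404, 10150 and 12770.

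Lymphocyte markers were mostly dim. Of 17 genes of T, NK and B cells, 10 were below the floor on all 3 arrays, among them Cd3d, Cd3g, Cd247, Cd8a and Cd2. None of the measured 4, 3 and 3 was at least 2-fold apart in the 3 comparisons, with medians of -0.07, 0.20 and 0.46. Lck, a kinase of T cells, had 1015, 946.6 and 1556, and Cd8b had 431.6, 812.6 and 415.7. The summed level of the list was 3782, 3959 and 4683.

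Mast cell, basophil and granulocyte genes were the neighbours of Fcer1a. Of 17 with a probe set, 11 were below the floor on all 3 arrays, including the mast cell genes Cpa3, Mcpt1 and Tpsab1, the histamine-forming enzyme gene Hdc and the neutrophil genes S100a8 and S100a9. Beside Fcer1a, 3, 4 and 3 were measured in the 3 comparisons and 0 were at least 2-fold apart, with medians of 0.58, 0.24 and -0.18. The tryptase gene Tpsb2 had 695.9, 1391 and 940.8, just under 2-fold between 0.1 h and 0.0 h, and the chymase gene Cma1 had 481.5, 525.7 and 465.2. Fcer1a was therefore the 1 measured gene of this list past 2-fold, and it lay below 0.0 h while Tpsb2 and Kit lay above it. The summed level of the list was 3968, 4240 and 3675.

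MHC class II genes, which present peptides on macrophages, dendritic cells and B cells, had 7 measured members. Between 0.1 h and 0.0 h their median was -0.16, which turned to 0.11 when probe sets were averaged. With probe sets named _g_at left out, second-brightest probe sets gave a median of 0.09, from RT1-Ba, RT1-Bb and RT1-DMa only. On brightest probe sets the median of the 7 was 0.39 between 1.0 h and 0.0 h and 0.48 between 1.0 h and 0.1 h. Read on brightest probe sets, Cd74, the invariant chain gene, was the 1 past 2-fold, between the later arrays: its intensities were 541.6, 400.4 and 807.6, with 2.02-fold between 1.0 h and 0.1 h. Of all measured genes, 4.07% were called higher in that comparison. Another Cd74 probe set, X13044_g_at, had 52.0, 78.8 and 612.2, above the floor only at 1.0 h, which was at least 2.48-fold above 0.0 h and at least 2.26-fold above 0.1 h. RT1-Da had 1634, 1295 and 2143 by its brightest probe set, and the other measured one had log2 differences of -0.07, -0.05 and 0.02.

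**Figure D3:**
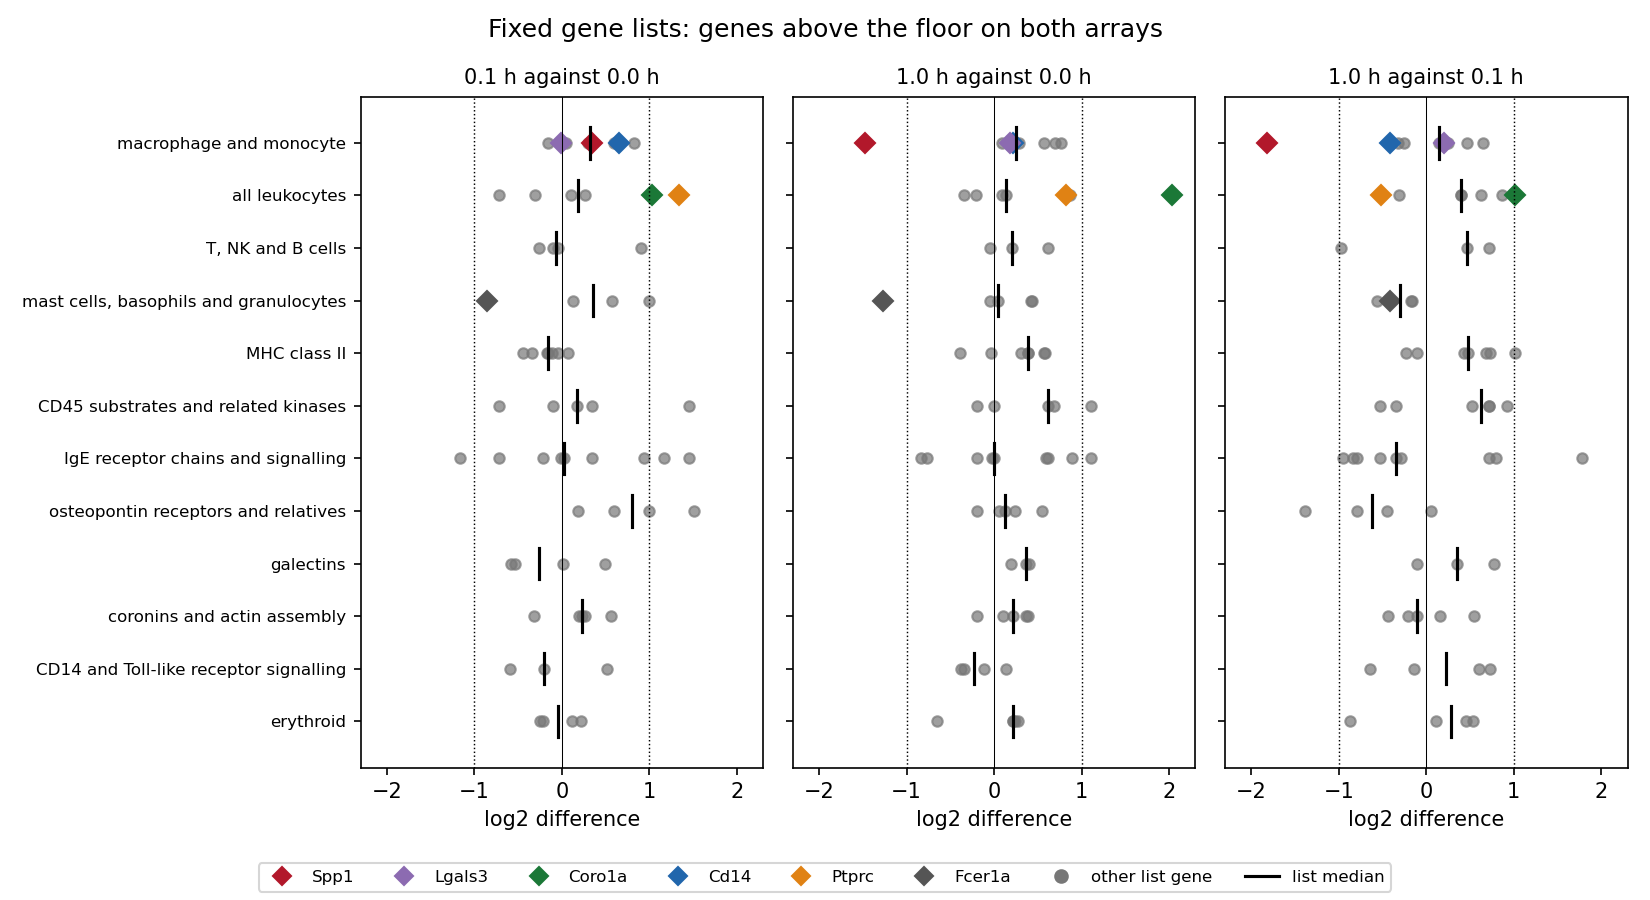
Log2 differences of the genes of 12 fixed lists that were above the floor on both arrays, 1 panel per comparison and 1 row per list; coloured diamonds are the 6 members, grey points other genes, black bars the list medians and dotted lines 2-fold. Spp1, Coro1a and Fcer1a lie outside the grey points of their own lists between 1.0 h and 0.0 h.

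The partners of the members in their pathways were read from further lists. For osteopontin, 2 of 4 measured receptor and related genes were at least 2-fold higher at 0.1 h than at 0.0 h: Cd44, a receptor of osteopontin, with 351.3, 703.1 and 515.1, and Mmp7, a metalloprotease gene, with 269.1, 765.3 and 293.0. Of all measured genes 5.76% were called higher in this comparison, and Cd44 passed at 2.00-fold. The Cd44 call rests on M61875_s_at alone, as its other probe sets were below the floor on all 3 arrays. Of these, A30543cds_s_at read 189.6, 84.3 and 29.3, AF014365_s_at 10.3, 33.5 and 87.1, and AF014365_i_at 3.2, 5.2 and 10.5. The Mmp7 levels at 0.0 h and 1.0 h stood just over the floors of 247.3 and 271.1. At 1.0 h 0 of 5 differed from 0.0 h by 2-fold, with a median of 0.12, while Spp1 itself was low. Mmp7 was 2.61-fold lower at 1.0 h than at 0.1 h, the 1 of 4 past 2-fold, against 5.03% of all measured genes called lower. Itgb1, the integrin beta 1 gene, had 17363, 26248 and 15221.

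For galectin-3, 0 of 4, 0 of 3 and 0 of 3 measured galectin and related genes were at least 2-fold apart in the comparisons of 0.1 h with 0.0 h, 1.0 h with 0.0 h and 1.0 h with 0.1 h. Their medians were -0.27, 0.36 and 0.35. Lgals1 had 9345, 13250 and 12317, and Lgals9 had 612.1, 408.9 and 696.7. The Lgals9 probe set U72741_g_at went the other way, with 625.6 at 0.0 h and 158.8, below the floor, at 1.0 h, at least 2.31-fold lower. Lgals3bp, which encodes a ligand of galectin-3, had log2 differences from 0.0 h of 0.01 and 0.36 on its brightest probe set and 1.09 and 1.11 on the other.

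Around CD14, 0 of 3, 0 of 4 and 0 of 4 measured genes of Toll-like receptor signalling were at least 2-fold apart, with medians of -0.20, -0.23 and 0.23. Tlr4, the receptor that CD14 serves, was read on AF057025_at, the brighter of its 2 probe sets. It was above the floor at 0.0 h and 1.0 h with 416.4 and 320.6. At 0.1 h, when Cd14 was at its highest, it was below the floor with 74.5. The other Tlr4 probe set, rc_AI030997_s_at, never reached the floor. It read 7.6, 108.3 and 87.3, highest at 0.1 h, so the low Tlr4 reading there rests on 1 probe set. Nfkbia, an inhibitor of NF-kappa B that is itself induced by it, was below the floor at 0.0 h and at least 2.51-fold higher at 1.0 h. This bound rests on X63594cds_g_at alone. The other Nfkbia probe set, X63594cds_at, read 71.9, 61.3 and 61.5, below the floor at every label. Nfkb1 had 9622, 6387 and 10602, and the cytokine gene Il1b 686.9, 986.5 and 634.1.

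For CD45, kinases that it or its partners act with were read. Syk was at least 2-fold higher than at 0.0 h at both later labels, with 268.1, 736.1 and 577.1, that is 2.75-fold and 2.15-fold. Its 0.0 h level stood just over the floor of 247.3. The other Syk probe set had 39.0, 50.8 and 38.5, below the floor on all 3 arrays. Syk was 1 of 5 measured in each comparison with 0.0 h, 0 were lower, and between 1.0 h and 0.1 h 0 of 6 were past 2-fold. Against 0.0 h, 5.76% of all measured genes were called higher at 0.1 h and 2.56% at 1.0 h. The medians were 0.17, 0.62 and 0.62. Jak1 read 206.2 at 0.0 h, under the floor, and was at least 2.32-fold higher at 1.0 h. Jak2 was 1.61-fold above 0.0 h at 1.0 h on its brightest probe set, and its other measured one had a log2 difference of 0.12.

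Syk also belongs to the IgE receptor list, where 9 genes were measured in each comparison. Between 0.1 h and 0.0 h, 2 were at least 2-fold higher, Syk and the phospholipase gene Pla2g4a at 2.25-fold, and 1 was lower, the kinase gene Pik3cd at 2.23-fold, against 5.76% and 4.59% of all measured genes. The 0.0 h levels of both higher genes, 268.1 for Syk and 259.9 for Pla2g4a, stood just over the floor of 247.3. Between 1.0 h and 0.0 h Syk was the 1 past 2-fold, and between 1.0 h and 0.1 h it was Pik3cd, at 3.44-fold higher. Of all measured genes, 2.56% and 4.07% were called higher in these comparisons. Pik3cd had 2154, 965.7 and 3320, low at 0.1 h. The medians were 0.02, 0.00 and -0.35. Lyn, the kinase that starts signalling from this receptor, had 998.7, 1267 and 876.1.

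Coronin relatives and actin assembly genes did not share the Coro1a pattern past 2-fold: 0 of 5 were at least 2-fold apart in each comparison, with medians of 0.23, 0.22 and -0.11. Coro1b had 2464, 2837 and 2634, Coro7 had 839.8, 987.0 and 1101, and Arpc1b, a subunit of the Arp2/3 complex, had 10529, 15571 and 13494.

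Blood left in the tissue would bring haemoglobin transcripts with it, and these were read beside the leukocyte genes. Hbb had 3737, 3133 and 4508 at 0.0 h, 0.1 h and 1.0 h, and Hbb-b1 had 2785, 2414 and 3299. Alas2, the haem synthesis enzyme gene of red cell precursors, went the other way in every comparison, with 1446, 1685 and 924.7. The summed level of the 6 erythroid genes with a probe set was 9409, 8604 and 10415. None of the 4, 5 and 4 measured was at least 2-fold apart, with medians of -0.04, 0.22 and 0.28. Their part in the leukocyte values was not tested. Over the 7 lists for vessels, connective tissue, glia, pinealocytes and the adrenal gland, the genes past 2-fold between 1.0 h and 0.0 h were Col1a1 and Aanat, higher, and Pdc, lower. Col1a1 passed on 1 of 4 measured probe sets, with a log2 difference of 1.11, and the others had 0.73, 0.19 and -0.32. Aanat passed at 2.0-fold from a 0.0 h level of 253.0, just over the floor of 247.3. Between 0.1 h and 0.0 h the genes past 2-fold were Asmt and S100b, higher, and Col1a2, lower, and between the later arrays Npy, higher, and Pdc, lower. The other S100b probe set had 192.0, 102.4 and 80.9, below the floor on all 3 arrays. Pdc, which encodes phosducin of pinealocytes, had 19481, 23079 and 9173, low at 1.0 h as Spp1 was.

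The genes whose pattern over the 3 arrays lay nearest to a member were found by the distance between their log2 differences from 0.0 h at 0.1 h and 1.0 h, over 2917 genes above the floor on all 3 arrays. Nearest to Spp1 were Nf1, Nfix and Atxn7l3, at log2 distances of 0.08, 0.17 and 0.20. Nearest to Coro1a were Klf4 at 0.16, Il1r2 at 0.40 and Tap1 at 0.49, so that Klf4 was the 1 gene within a log2 distance of 0.25. Ptprc lay nearest to Fut1, Slfn2 and Cavin3, at 0.04, 0.08 and 0.09, with 25 genes within 0.25. Fcer1a lay nearest to Hps3, Mpzl1 and Ndufaf3, at 0.09, 0.17 and 0.20. With 3 arrays a pattern has only 2 differences, so a short distance is a description of these arrays.

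The 9 spike-in control probe sets had mean log2 differences of 0.27, -0.20 and -0.47 in the comparisons of 0.1 h with 0.0 h, 1.0 h with 0.0 h and 1.0 h with 0.1 h, and setting them equal moved every difference by as much the other way. Under that scaling Spp1 was at -1.28 between 1.0 h and 0.0 h, Fcer1a at -1.14 between 0.1 h and 0.0 h, Ptprc at 1.01 between 1.0 h and 0.0 h, and Fcer1a at 0.06 between 1.0 h and 0.1 h. The Cd14 probe sets were at 0.04 and 0.42 in that last comparison, and the second of them was already at 0.04 with the deposited values. Spike-in scaling turned the sign of 17 of the 54 list medians. For the list of all leukocyte genes with Ptprc and Coro1a, the median between 0.1 h and 0.0 h was 0.18, and -0.10 under spike-in scaling or a floor at the 60th percentile. For the mast cell list with Fcer1a, the median between 1.0 h and 0.0 h was 0.05. It was -0.10 under both quantile and cyclic loess normalisation, -0.02 with a floor at the 20th percentile and -0.19 with no floor.

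**Figure D4:**
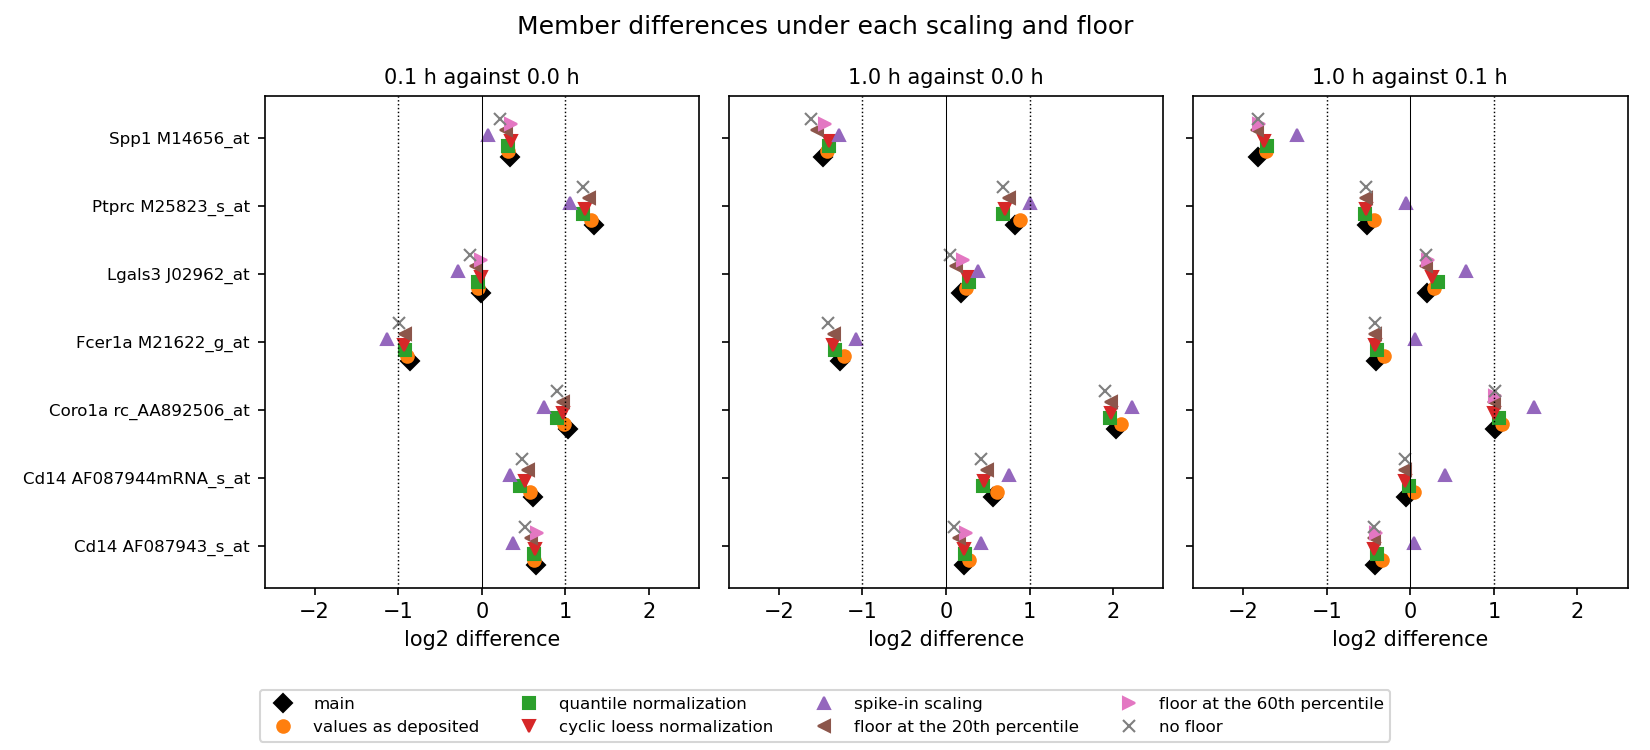
Log2 differences of the 7 member probe sets above the floor under the main reading (black diamonds) and 7 other scalings or floors, 1 panel per comparison, with dotted lines at 2-fold. Spp1 and Fcer1a stay past 2-fold on the low side and Coro1a on the high side between 1.0 h and 0.0 h in every reading that gave a value. Between 0.1 h and 0.0 h Coro1a is just past the line in the main reading, at 1.03, and under it in the others that gave a value, at 0.75 to 0.99.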

How the data were processed

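Total RNA of 3 rat samples was measured on 1 array each. The deposited values are linear intensities, 1 per probe set; how probe signals were summarised and corrected for background was not given in the sources used here. Among deposited intensity values, means without the highest and lowest 2% were 2503.7, 2503.9 and 2503.7, so the authors had scaled the arrays. Of 8799 probe sets, 59 were controls. Names came from the platform's annotation: 7006 probe sets had 1 symbol, 308 several and 1426 none; 6985 of the 7006 matched the RefSeq table of GRCr8 by gene ID, with 0 symbols changed.

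Intensities were scaled to a common median. The floor was the 40th percentile of all values, 262.9, and arrays were then shifted by -0.088, 0.044 and 0.045 (log2) to equal medians over probe sets above it. Differences were called at 2-fold, with no test. A gene was read from its brightest probe set. The members and the 19 gene lists were chosen with earlier results of these data known, and the motifs after the member values were seen. Genes named beside the members were list genes past 2-fold, up to 4 per direction, or the 2 brightest; for members past 2-fold, the 3 genes nearest in pattern; and tissue markers. Other list genes are printed for their role and were chosen after their values were seen.

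Alternatives were the deposited values, normalisation by quantiles or by cyclic loess (limma 3.58.1, run in R 4.3.3), spike-in scaling, floors at the 20th or 60th percentile or none, and the mean or second-brightest probe set of a gene. For the second-brightest alternative, probe sets named _g_at were left out first. They were kept where brightest and second-brightest probe sets were compared for agreement. The reading of differences was tried on simulated data, with planted changes larger than 2-fold in probe sets well above the floor. Differences near the floor or near 2-fold were not covered by it. The simulated noise was also set below the spread of the real differences, so the trial does not cover that spread.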

Additional observations from a re-analysis of the deposited data

How the results depend on the processing

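Of 7 member differences past 2-fold, 6 stayed past it under every scaling and floor that gave a value, the exception being Coro1a between 0.1 h and 0.0 h. In 136 member values under these alternatives, 128 kept their side of 2-fold and 0 were past 2-fold in the opposite direction. Deposited values, spike-in scaling and other floors shift all probe sets of an array by the same amount, so they are a narrow check. Averaging probe sets is outside these counts. It put Ptprc at 0.95 between 0.1 h and 0.0 h and Fcer1a at -0.71 between 1.0 h and 0.0 h, both under 2-fold. No paired analysis was possible because each time label has 1 array. Depth is not defined for arrays, and the number of arrays and the floor limit what can be read: under a 60th-percentile floor 3 of the 10 member probe sets were above it on all 3 arrays, not 7.

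Counts that moved are given in the order 0.1 h against 0.0 h, 1.0 h against 0.0 h, 1.0 h against 0.1 h. Member probe sets at least 2-fold higher numbered 2, 1 and 1 and lower 0, 2 and 1. The first count was 1 with deposited values, quantile, cyclic loess or spike-in scaling or a floor at the 20th percentile, and 0 at the 60th. Spike-in scaling gave 1 lower in the first comparison and 2 higher in the second; no floor gave 2 higher in the second, and the 60th percentile 0 higher and 1 lower there. Read as genes, averaging probe sets gave 1 higher in the first comparison and 1 lower in the second; on second-brightest probe sets, where of the members only Cd14 gave a value, all counts were 0.

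Over all probe sets, 304, 149 and 185 were higher and 202, 118 and 263 lower. Spike-in scaling gave 139, 278 and 789 higher and 453, 62 and 59 lower. The floor at the 20th percentile gave 543, 369 and 433 higher and 477, 362 and 521 lower, the 60th percentile 177, 67 and 98 higher and 130, 62 and 163 lower, and no floor 1039, 946 and 1055 higher and 1125, 897 and 1020 lower.

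Over the list genes beside the members, 6, 3 and 3 were higher and 2, 1 and 2 lower. Deposited values gave 2 lower in the second comparison and 6 higher in the last, and quantile normalisation 1 higher in the second. Spike-in scaling gave 3, 6 and 21 higher and 0 lower in both comparisons of 1.0 h. The floor at the 20th percentile gave 10 and 9 higher in those and 8, 4 and 5 lower over all comparisons; the 60th percentile gave 3, 1 and 1 higher and 1 lower in the last; no floor gave 17, 18 and 21 higher and 23, 15 and 11 lower. Averaging gave 7 higher in the second and 2 and 4 lower in the comparisons of 1.0 h, and second-brightest probe sets 2, 1 and 0 higher and 0, 0 and 1 lower. Other floors change which genes are measured; otherwise the cause was not tested.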

Other observations

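Several immune genes crossed the floor between arrays and so have only a bound. The T helper and macrophage co-receptor gene Cd4 had 375.7 and 366.2 at 0.0 h and 0.1 h and 39.6, below the floor, at 1.0 h, which makes it at least 1.39-fold lower than at 0.0 h. The B cell gene Cd79b was above the floor only at 0.0 h, with 268.8, 64.2 and 58.3. The cytokine gene Il5 was above it only at 0.1 h, with 60.8, 330.9 and 238.4, and the kinase gene Jak3 only at 1.0 h, with 72.1, 185.6 and 379.4. Over all lists, each gene on its brightest probe set, 20, 14 and 18 genes were above the floor on 1 array only in the comparisons of 0.1 h with 0.0 h, 1.0 h with 0.0 h and 1.0 h with 0.1 h. A bound of at least 2-fold was reached by 0, 3 and 0 of them: Jak1, Nfkbia and Lgals8, the last of which was at least 2.11-fold lower at 1.0 h. The Nfkbia bound rests on X63594cds_g_at alone.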
